A study of Mus musculus with 15 samples.

Results

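The baseline state of cultured mouse satellite cells was described from the 6 libraries of vehicle-treated cells among the 15 libraries of the series. The 6 were chosen by their label alone: 3 control libraries of a first batch and 3 of a second, with no treated library entering any level below. The cells had been taken from hindlimb muscle, their growth medium was F10 plus 10% serum of horses, and the solvent DMSO was on them for 24 h, so that every library carried DMSO and none represents cells without it. The second batch came from C57BL/6J mice, and the labels used here give no strain for the first. RNA was total RNA, turned into cDNA by Smart-Seq2 and cut with the transposase Tn5, a protocol that keeps no strand, so reads of overlapping and antisense genes cannot be told apart. The labels do not say whether the 3 libraries of a batch came from separate animals or cultures, and the spread given below may be technical. In bulk RNA, fewer cells of a type and less RNA per cell cannot be told apart.

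Satellite cells are the stem cells of skeletal muscle. They lie beneath the basement membrane of the fibre and are marked by the transcription factor PAX7. When they leave quiescence, or are put in culture, they make MYF5 and MYOD1, enter the cell cycle and become myoblasts. MYOG and then the genes of the contractile apparatus follow when these cells withdraw from the cycle and fuse. Cultured satellite cells in growth medium are known as proliferating, MYOD1-positive cells rather than as quiescent ones.

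Total counts were 20799588, 15045752 and 16212891 in libraries 1 to 3 of batch 1, taken over all its gene entries. They were 14201933, 11482198 and 12551788 in those of batch 2, taken over its named genes. Thus 10 CPM (counts scaled to the library total) stood for 115 to 208 counts. At least 1 CPM in all 3 libraries was reached by 11503 genes in batch 1 and by 11288 in batch 2, and 10859 were common to both, which is 94.4% of the first list and 96.2% of the second. Levels per gene length (FPKM) had a Spearman correlation of 0.947 between the batch medians across the 13042 genes named in both tables, a description over genes that are not independent replicates. Pairs of libraries gave 0.983 to 0.992 inside a batch and 0.933 to 0.954 across batches. Of the 500 genes with the highest median FPKM, 432 (86.4% of either list) were in both. The biological coefficient of variation estimated by edgeR was 0.183 in batch 1 and 0.0817 in batch 2. The libraries of batch 1 therefore lay further apart from each other than those of batch 2 did.

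All 5 defining markers were present in every library. Myod1 (ENSMUSG00000009471, GRCm38 chr7:46376474-46379092, plus strand), the master regulator of the myogenic programme, had FPKM of 1506, 1516 and 1684 in batch 1 and 794, 998 and 1012 in batch 2. The mean was 1569 ± 99.9 (SD, n = 3) in the first and 934 ± 122 (SD, n = 3) in the second. Myod1 was thus rank 22 of all shared genes in batch 1 and rank 53 in batch 2, among ribosomal protein genes, and its batch values did not overlap. Pax7 (chr4:139737062-139833528, minus strand), the stem cell marker, stood far below it at 10.3, 11.6 and 10.2 FPKM in batch 1 and 8.70, 7.93 and 7.46 in batch 2. Within a library the Myod1 level was 131 to 165 times that of Pax7 in batch 1 and 91.2 to 136 times in batch 2. No library departed from that order.

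Myf5 (chr10:107482908-107486134, minus strand), the regulator that marks committed satellite cells, had FPKM of 105, 79.3 and 74.0 in batch 1 and 93.6, 76.7 and 89.8 in batch 2. Its batch 2 values lay within the range of batch 1, and Myod1 was 14.4 to 22.7 times as high as Myf5 in batch 1 and 8.48 to 13 times in batch 2. Des (chr1:75360329-75368579, plus strand), which encodes the muscle intermediate filament desmin, had 297, 313 and 263 FPKM in batch 1 and 384, 478 and 437 in batch 2. Cdh15 (chr8:122848374-122867397, plus strand), which encodes M-cadherin, had 147, 153 and 145 in batch 1 and 87.6, 102 and 95.1 in batch 2. Des was higher in batch 2 than in batch 1, and Cdh15 was higher in batch 1 than in batch 2, each without overlap. Counted in CPM over the shared genes, the batch 2 to batch 1 ratio of medians was 1.36 for Des, 0.60 for Cdh15, 0.60 for Myod1, 0.70 for Pax7 and 1.04 for Myf5, against a median of 0.835 over all genes compared, so none of the 5 passed a 2-fold difference.

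**Figure D1:**
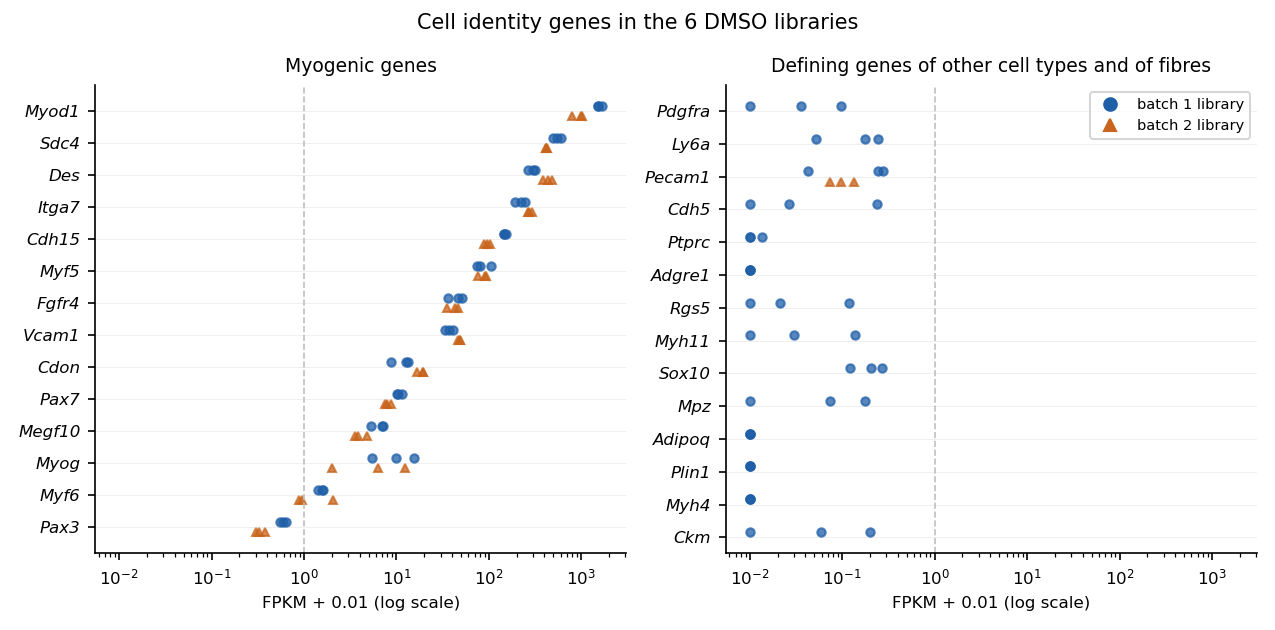
FPKM plus 0.01 on a log axis in the 3 DMSO libraries of batch 1 (circles) and of batch 2 (triangles), 1 point per library, for myogenic genes (left) and for defining genes of other cell types and of fibres (right); the dashed line marks 1 FPKM. Myod1 stands above all other myogenic genes in every library, the points of Myog are spread the most, and every point on the right lies below 1 FPKM. Of the genes on the right only Pecam1 was listed in batch 2, so the others have batch 1 points only. Other members of their lists, such as Gsn and Acta2, are not drawn and lay above 1 FPKM.

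The other paired box and myogenic factors were low. Myog, the factor of terminal differentiation, had 15.4, 9.82 and 5.41 FPKM in batch 1 and 1.98, 12.3 and 6.31 in batch 2. Its highest value in CPM was 2.92 times the lowest in batch 1 and 5.99 times in batch 2, so the ranges of both batches overlapped widely. Myf6, the factor of mature fibres, stayed between 0.88 and 2.06 FPKM. Pax3, the paralogue of Pax7 used in the embryo, stayed between 0.29 and 0.63. Pax7 was 17.9 to 18.9 times as high as Pax3 in batch 1 and 21.3 to 27.7 times in batch 2. The inhibitors of the MYOD family were abundant: Id3 had 445, 511 and 600 FPKM in batch 1 and 273, 326 and 340 in batch 2, and Id1 and Id2 lay between 138 and 396.

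Surface markers used to isolate satellite cells were high as well. Sdc4, a heparan sulphate coreceptor, had 541, 496 and 604 FPKM in batch 1 and 417, 417 and 423 in batch 2. Itga7, the laminin-binding integrin of muscle, had 245, 193 and 221 in batch 1 and 268, 296 and 273 in batch 2. Vcam1, an adhesion protein, had 40.7, 36.7 and 33.7 in batch 1 and 48.8, 48.9 and 46.8 in batch 2. Of the 12 markers listed for satellite cells and myoblasts, 11 reached 1 CPM in all libraries of both batches, with Chrdl2 the exception at 0.32 to 1.41 FPKM. None of the 11 varied over 2-fold in CPM among the libraries of a batch, where 2.83% of all genes at 10 CPM or more did in batch 1 and 0.221% in batch 2. None was over 2-fold apart between batches without overlap, where 4.82% of all genes compared were so in favour of batch 2 and 10.8% in favour of batch 1. Their median percentile among the shared genes was 91.5 in batch 1 and 92.4 in batch 2.

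Among 20 surface and adhesion genes compared, 2 were higher in batch 1 by that measure and 1 with TMM scaling (edgeR's correction for unequal RNA composition), a share near that of all genes (10.8% and 6.35%). Ncam1, the neural cell adhesion molecule that myoblasts also carry, had 177, 171 and 134 FPKM in batch 1 and 66.6, 64.0 and 59.5 in batch 2. Cd81, a tetraspanin involved in fusion, had 269, 268 and 241 in batch 1 and 125, 136 and 124 in batch 2. Bhlhe41, a repressor of MYOD1 activity, was 13.5, 14.4 and 13.01 in batch 1 and 2.64, 1.97 and 2.23 in batch 2, 0.15 times as high in CPM.

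Several defining markers of other cells were at or near 0. In batch 1 Pdgfra, the marker of fibro-adipogenic cells, was between 0 and 0.09 FPKM. The macrophage genes Adgre1 and Csf1r had no count in any library of batch 1, which allows at most 0.144 to 0.199 CPM at 3 counts (counting error only). Csf1r was listed in batch 2 and had counts among its DMSO libraries, whereas Adgre1 was not listed there. In batch 1 no count was found either for the adipocyte genes Adipoq, Plin1 and Cfd or for the fast and slow myosin genes Myh2, Myh4 and Myh7. Other members of these lists were present: the adipocyte list summed to 2.13 to 3.29 FPKM in batch 1 and 7.52 to 8.47 in batch 2, mainly from the lipase gene Lpl, and the mature myofibre list to 54.6 to 119 and 77.5 to 120, mainly from Eno3, the muscle enolase, and Acta1. Most of the markers were not analysed in batch 2, whose table lists no gene with fewer than 101 counts over its 9 libraries. Endothelial markers summed to 2.76 to 3.63 FPKM over 10 genes in batch 1 and to 1.48 to 2.56 over the 3 of them listed in batch 2. Blood cell markers summed to 4.93 to 5.17 over 9 genes and to 2.54 to 3.71 over 3. Because different members were listed, the sums of other cell types are not comparable between batches. The sums for fibroblasts (43.4 to 55.2 in batch 1, 25.6 to 31.8 in batch 2) and tenocytes (38.3 to 44.7 and 12.5 to 25.9) came mostly from Gsn at 22.3 to 44.5 FPKM, an actin-severing protein that many cells make, and from Scx at 12.05 to 43.1, a factor of tendon cells. The pericyte sum of 397 to 639 in batch 1 and 534 to 750 in batch 2 came from Des and from Acta2, the smooth muscle actin, which had 332, 293 and 127 FPKM in batch 1 and 144, 266 and 178 in batch 2.

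The most abundant RNA in all 6 libraries was CT010467.1, an annotated ribosomal RNA on chromosome 17, with 45012, 49842 and 54966 FPKM in batch 1 and 79479, 90433 and 90893 in batch 2. Ribosomal RNA held 9.08 to 10.5% of counts in batch 1 and 15.8 to 16.8% in batch 2. Of the 20 highest genes, 16 were common to both batches. Lgals1, the galectin secreted by myoblasts, had 4106, 4145 and 4441 FPKM in batch 1 and 4391, 4954 and 4711 in batch 2. Eef1a1, the elongation factor that brings aminoacyl-tRNA to the ribosome, had 2888, 2942 and 2738 in batch 1 and 2778, 2896 and 2816 in batch 2. These values overlapped between batches for both genes. Both ferritin chains were in the group: Fth1 had 2775, 3062 and 4058 FPKM in batch 1 and 3276, 3160 and 3412 in batch 2, while Ftl1 had 3112, 3253 and 3974 and then 1498, 1666 and 1662. The heavy and light chains were thus level with each other in batch 1, whereas the heavy chain was the higher in batch 2.

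Other genes within the first 27 ranks of both batches were mitochondrial transcripts (mt-Rnr2, mt-Nd1, mt-Co1, mt-Cytb), ribosomal protein genes (Rplp0, Rplp1, Rpl4, Rpl32, Rps26, Rps23), Cd63, a tetraspanin of endosomes and exosomes, Cfl1, which severs actin filaments, and the predicted genes Gm23935 and Gm26917. The 16S ribosomal RNA mt-Rnr2 had 8006, 7622 and 7606 FPKM in batch 1 and 16951, 16031 and 14740 in batch 2. Of the 13 messenger RNAs from the same genome, 7 were over 2-fold higher in batch 2 without overlap (4.82% of all genes compared) and the others were not. Among the others mt-Co1, a catalytic subunit of cytochrome c oxidase, ran from 2406 to 2754 in batch 1 and from 2550 to 2577 in batch 2. Of the 7, mt-Nd5, a complex I subunit, was the most abundant, with 503, 430 and 410 in batch 1 and 1119, 1090 and 1115 in batch 2, and mt-Atp6, mt-Co2, mt-Co3, mt-Atp8, mt-Nd3 and mt-Nd4l did not exceed 42.02. Reads of mitochondrial genes are uncertain where the nuclear genome holds near-identical copies.

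Genes of protein synthesis stood near the top throughout. The 79 cytosolic ribosomal protein genes all reached 1 CPM, and their FPKM summed to 51741, 59412 and 72320 in batch 1 and 57137, 59906 and 61929 in batch 2. In batch 1 the sum was lowest in library 1 and highest in library 3, and 58 of the 78 members at 10 CPM or more were highest there, while in batch 2 the libraries lay close together. How many of all genes were highest in library 3 was not counted. Rpl36 varied over 2-fold in batch 1, with 1143, 1489 and 2356 FPKM. Rps12 was the only member over 2-fold apart between batches, with 593, 683 and 920 FPKM in batch 1 and 1687, 1622 and 1612 in batch 2. Many ribosomal protein genes have near-identical pseudogenes, and the split of reads between them is uncertain. The 28 translation factors summed to 9193, 9132 and 9291 FPKM in batch 1, and the 27 of them listed in batch 2 to 8915, 8876 and 8830 there. None of the 27 at 10 CPM or more varied over 2-fold, where 2.83% of all genes did in batch 1 and 0.221% in batch 2.

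The summed level of energy metabolism genes varied little among the 6 libraries. The 23 genes of glycolysis and lactate handling summed to 4157, 3729 and 3808 FPKM in batch 1, and the 20 of them listed in batch 2 to 3932, 3922 and 3916 there. Of the 19 at 10 CPM or more, 1 varied over 2-fold in batch 1 and none in batch 2. Pkm, pyruvate kinase, had 1444, 1237 and 1284 in batch 1 and 1196, 1207 and 1256 in batch 2. Ldha, which makes lactate, had 625, 539 and 551 and then 635, 565 and 559. Both genes overlapped between batches. The 49 nuclear genes of oxidative phosphorylation summed to 8055, 8139 and 8788 in batch 1, and the 46 of them listed in batch 2 to 8001, 8650 and 8564 there. None of the 46 at 10 CPM or more varied over 2-fold within a batch. Among all genes at that level 2.83% did in batch 1 and 0.221% in batch 2. Cox6a2, Cox7a1 and Cox8b, the cytochrome oxidase subunits of mature muscle and heart, did not exceed 2.57 FPKM in batch 1 and were not listed in batch 2. Of the glucose transporters, Slc2a1 had 14.03, 13.9 and 14.2 in batch 1 and 14.7, 16.1 and 15.4 in batch 2. Slc2a4, the insulin-dependent transporter of fibres, did not exceed 0.09 in batch 1 and was not listed in batch 2.

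**Figure D2:**
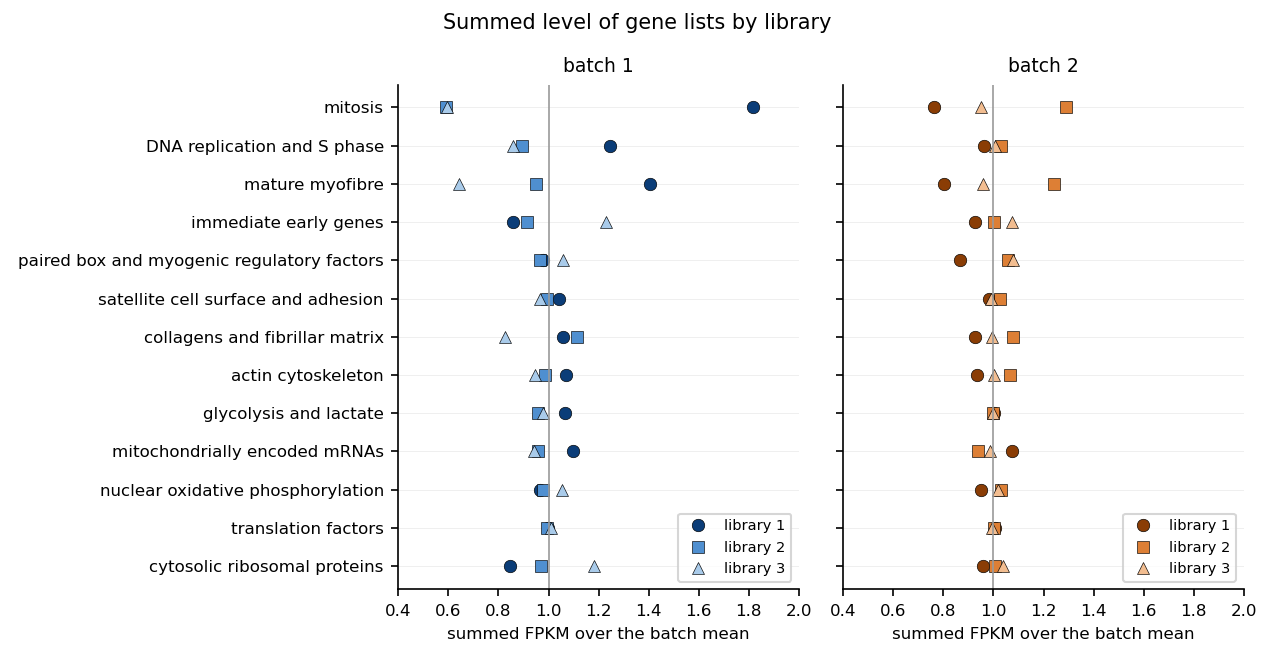
Summed FPKM of 13 gene lists in each DMSO library, divided by the mean of its batch, with batch 1 on the left and batch 2 on the right and 1 symbol per library. The mitosis list is spread the most, highest in library 1 of batch 1 and in library 2 of batch 2, while translation factors and, in batch 2, glycolysis lie on the line at 1.

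Mitosis genes set the libraries of a batch apart more than the energy metabolism genes did. Over 2-fold variation in CPM among the 3 libraries was found in 246 of 8698 genes at 10 CPM or more in batch 1, a share of 2.83%, and in 18 of 8154 in batch 2, a share of 0.221%. Library 1 was the highest for 150 of the 246 (1.72% of all genes compared), library 2 for 55 (0.632%) and library 3 for 41 (0.471%). In batch 1 the count was 70 without library 1 and 117 without library 3. In batch 2 it was 2 without library 1 and 7 without library 2. The median of highest over lowest CPM was 1.24 in batch 1 and 1.14 in batch 2. The 10 most variable genes of batch 1 were the cell division genes Kif4, Spag5, Ccnb1, Ube2c, Cep55, Nek2 and Mki67, the collagen gene Col1a1 and the predicted genes Gm47283 and Gm21738. Those of batch 2 were Acta1, the centromere histone gene Cenpa, Fam83d and Sapcd2 of the mitotic spindle, Wdfy1, Gfod1, Habp4, Gm10052 and the ribosomal protein pseudogenes Rps6-ps4 and Rpl19-ps11.

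Among the 32 mitosis genes the 2-fold share was of another order. In batch 1, 30 of the 30 members at 10 CPM or more varied over 2-fold, and all 30 were highest in library 1, with a median of highest over lowest of 3.31. Without library 1 none did, and without library 2 or 3 the counts were 31 and 30. Summed FPKM was 492, 159 and 161 in batch 1 and 679, 1149 and 845 in batch 2. The batch 1 mean of these sums was 270.8, and without library 1 it was 160.3. In batch 2 all 32 were highest in library 2, 29 of 32 were lowest in library 1, and 4 (Cdc20, Ube2c, Ccnb2 and Cenpa) varied over 2-fold. For all genes of batch 2, the share highest in library 2 was not counted. The batch 2 count was 1 without library 1 and 0 without library 2. Library 1 of batch 1 and library 2 of batch 2 therefore held the most mitotic RNA of their batch.

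Members of each mitotic role followed the same order. Mki67, the proliferation antigen that coats mitotic chromosomes, had 11.1, 3.05 and 2.62 FPKM in batch 1 and 9.54, 15.6 and 10.96 in batch 2. Cdk1, the kinase that drives entry into mitosis, had 40.0, 14.7 and 12.4 in batch 1 and 65.1, 96.5 and 82.5 in batch 2. Ccnb1, its cyclin B partner, had 16.7, 2.99 and 3.22 and then 28.7, 50.7 and 33.8. For Cdk1 and Ccnb1 all batch 2 values lay above all batch 1 values, and for Mki67 the batches overlapped through library 1 of batch 1. Cdc20, the activator of the anaphase-promoting complex, had 41.5, 12.03 and 14.8 in batch 1 and 36.9, 83.9 and 52.5 in batch 2. Ube2c, the ubiquitin-conjugating enzyme of that complex, had 28.5, 8.29 and 5.61 and then 33.0, 71.3 and 48.7. Cdc20 overlapped between batches and Ube2c did not. Top2a, the topoisomerase that untangles sister chromatids, and Aurkb, the kinase of the chromosomal passenger complex, were likewise highest in library 1 of batch 1, at 22.8 and 25.3 FPKM, and highest in library 2 of batch 2, at 51.9 and 46.1.

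Because these genes varied together among libraries, 4 of their promoters are shown, beside that of Acta1, a differentiation gene outside the cell cycle lists whose values below were highest in the same libraries. The sequences are RefSeq's on GRCm38.p6, read 5′ to 3′ on the gene's strand and covering 250 bases before the start. Capitals mark TTTGAA, the core of the cell cycle homology region found in promoters of mitotic genes, and CCAAT, the box bound by NF-Y, on either strand, and in Acta1, the skeletal muscle actin gene, CAGCTG, an E-box of the type bound by MYOD1, and TATAAA.
Mki67 (chr7:135716380-135716629, minus strand): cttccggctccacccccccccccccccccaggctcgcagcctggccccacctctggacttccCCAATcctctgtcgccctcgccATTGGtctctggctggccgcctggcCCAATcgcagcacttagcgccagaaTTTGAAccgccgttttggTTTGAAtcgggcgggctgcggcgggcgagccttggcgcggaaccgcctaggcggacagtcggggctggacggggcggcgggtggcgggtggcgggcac
Cdc20 (chr4:118437344-118437593, minus strand): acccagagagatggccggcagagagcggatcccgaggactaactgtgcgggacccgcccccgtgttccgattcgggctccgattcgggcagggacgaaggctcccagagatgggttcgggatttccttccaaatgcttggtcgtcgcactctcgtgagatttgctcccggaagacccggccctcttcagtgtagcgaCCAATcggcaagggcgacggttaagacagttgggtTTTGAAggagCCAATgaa
Cdk1 (chr10:69352913-69353162, minus strand): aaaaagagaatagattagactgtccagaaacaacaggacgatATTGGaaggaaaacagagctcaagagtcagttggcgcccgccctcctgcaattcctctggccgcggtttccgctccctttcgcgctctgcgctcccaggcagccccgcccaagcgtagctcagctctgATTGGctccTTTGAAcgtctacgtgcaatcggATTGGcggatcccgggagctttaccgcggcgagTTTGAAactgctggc
Ube2c (chr2:164769679-164769928, plus strand): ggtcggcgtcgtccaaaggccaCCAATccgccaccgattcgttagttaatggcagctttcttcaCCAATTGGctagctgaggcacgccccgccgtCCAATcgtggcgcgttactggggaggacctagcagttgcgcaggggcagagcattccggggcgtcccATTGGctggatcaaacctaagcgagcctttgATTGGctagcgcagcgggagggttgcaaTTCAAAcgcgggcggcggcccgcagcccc
Acta1 (chr8:123894776-123895025, minus strand): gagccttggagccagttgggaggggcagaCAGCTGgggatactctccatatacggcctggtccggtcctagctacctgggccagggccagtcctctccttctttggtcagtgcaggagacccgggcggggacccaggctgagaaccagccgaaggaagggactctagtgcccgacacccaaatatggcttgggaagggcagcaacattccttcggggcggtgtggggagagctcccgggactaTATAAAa
Both strands were searched for each word over 300 bases, from 250 before to 50 after the start, counting a gene when any of its promoters held the word. CCAAT reads ATTGG and TTTGAA reads TTCAAA where the word is on the other strand, and CAGCTG reads the same on both. In Ube2c a pair of CCAAT words on opposite strands overlap. TTTGAA was in 20 of the 26 mitosis promoters that matched a RefSeq entry (76.9%), in 4 of 34 from DNA replication genes (11.8%), in 4 of 58 from ribosomal protein genes (6.90%) and in 20.2% of all 27025 genes with a promoter entry. CCAAT was in 21 of the 26 (80.8%), in 21 of 34 from DNA replication genes (61.8%), in 18 of 58 from ribosomal protein genes (31.0%) and in 41.1% of all. CAGCTG was in 10 of 24 differentiation promoters (41.7%) and in 18.3% of all, and TATAAA in 9 of those 24 (37.5%), in 0 of the 26 mitosis promoters and in 15.7% of all. A match is a word in this window and not a site shown to be bound. The ratio of CPM in library 1 of batch 1 to the mean of libraries 2 and 3 was 2.01 to 4.74 (median 3.12) in the 20 mitosis genes with TTTGAA and 2.51 to 5.42 (median 2.73) in the 6 without it, ranges that overlapped.

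**Figure D3:**
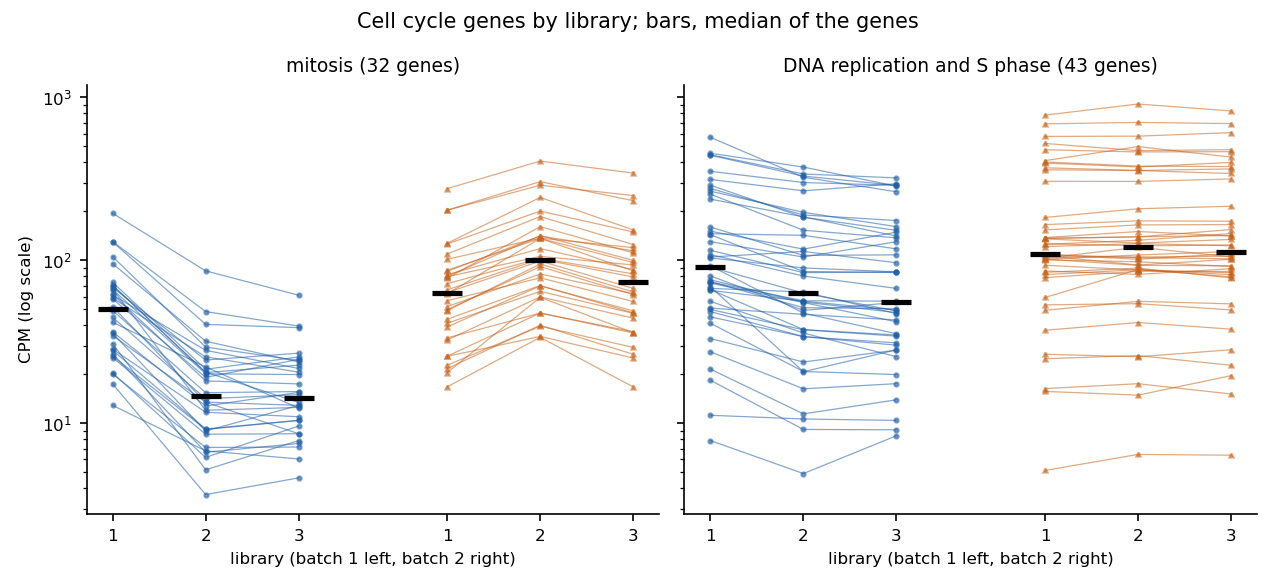
CPM on a log axis of the 32 mitosis genes (left) and the 43 DNA replication and S phase genes (right) in the 3 DMSO libraries of batch 1 and of batch 2, where a thin line joins the values of a gene and a thick bar is the median of the genes. Mitosis genes are highest in library 1 of batch 1 and in library 2 of batch 2, and DNA replication genes are spread less among libraries.

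DNA replication genes were also highest in library 1 of batch 1, by smaller steps, but kept no common order in batch 2. The 43 members of the S phase list summed to 1950, 1397 and 1345 FPKM in batch 1 and 2673, 2863 and 2796 in batch 2. In batch 1, 40 of the 42 at 10 CPM or more were highest in library 1 and 6 varied over 2-fold, where 2.83% of all genes did. In batch 2 none varied over 2-fold, near the 0.221% of all genes, and 12, 16 and 14 of 42 were highest in libraries 1 to 3. Shares of all genes highest in each library were not counted. Pcna, the sliding clamp, had 196, 148 and 145 in batch 1 and 317, 337 and 327 in batch 2. Rrm2, the subunit of ribonucleotide reductase made in S phase, had 217, 122 and 103 and then 310, 378 and 339. Mcm2, a subunit of the replicative helicase, had 98.4, 82.9 and 95.1 and then 130, 128 and 135, so that it was nearly level among the libraries of a batch. The ratio of Mcm2 to Mki67 was accordingly 8.91, 27.2 and 36.4 in batch 1 and 13.6, 8.20 and 12.3 in batch 2.

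Genes of G1, the listed D and E cyclins, their kinases and inhibitors, varied less than mitosis genes. Of those at 10 CPM or more, 2 of 14 varied over 2-fold in batch 1 (2.83% of all genes) and 0 of 13 in batch 2 (0.221%). Of 16 compared, 4 were over 2-fold higher in batch 2 without overlap (4.82% of all genes) and 3 in batch 1 (10.8%). With TMM scaling these counts were 5 and 2 (6.83% and 6.35% of all genes). Among members at 10 CPM or more, 10 of 14 were highest in library 1 of batch 1 and 11 of 13 in library 2 of batch 2. The share of all genes highest in those libraries was not counted. The summed FPKM of the list was 796, 707 and 851 in batch 1, highest in library 3, and 654, 722 and 677 in batch 2. Ccnd1, cyclin D1, had 132, 129 and 163 FPKM in batch 1 and 74.4, 69.2 and 69.8 in batch 2, and was 4.49 to 7.46 times as high as Ccnd3 in the first and 2.21 to 3.13 times in the second. Cdk4, its kinase, had 202, 179 and 203 and then 180, 192 and 185, whereas the related Cdk6 had 12.2, 9.78 and 8.94 and then 24.9, 23.6 and 22.4. Cdk4 overlapped between batches, and Ccnd1 and Cdk6 differed in opposite directions. The inhibitor Cdkn1a (p21) had 281, 267 and 366 in batch 1 and 181, 205 and 182 in batch 2, and Cdkn1b (p27) was far lower at 4.07, 5.06 and 5.51 and then 1.78, 2.22 and 1.75. Cdkn2a, the senescence-associated inhibitor locus, did not exceed 0.30 in batch 1 and was not listed in batch 2. Ccne1, cyclin E1, had 16.3, 8.18 and 8.12 in batch 1 and 32.5, 37.03 and 36.5 in batch 2.

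Between batches, genes were counted when all 3 values of a batch lay above all 3 of the other and the medians, in CPM over the shared genes, differed over 2-fold. Batch 2 was the higher for 574 of 11898 genes (4.82%) and batch 1 for 1283 (10.8%). With TMM scaling by edgeR the counts were 812 (6.83%) and 755 (6.35%) of 11894, so that batch 2 held 30.9% of the differing genes in the first scaling and 51.8% in the second. The tables of both batches were made separately, and the batch cannot be told apart from animals, culture or processing, so no test was made. Mitosis genes were higher in batch 2 in 26 of 32 cases and in batch 1 in none, with a median ratio of 4.33 where all genes had 0.835, and with TMM the count was 27. DNA replication genes were higher in batch 2 in 11 of 43 cases, with a median ratio of 1.76. That count was 24 with TMM, 4 without library 2 of batch 1 and 2 without library 3 of batch 1.

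**Figure D4:**
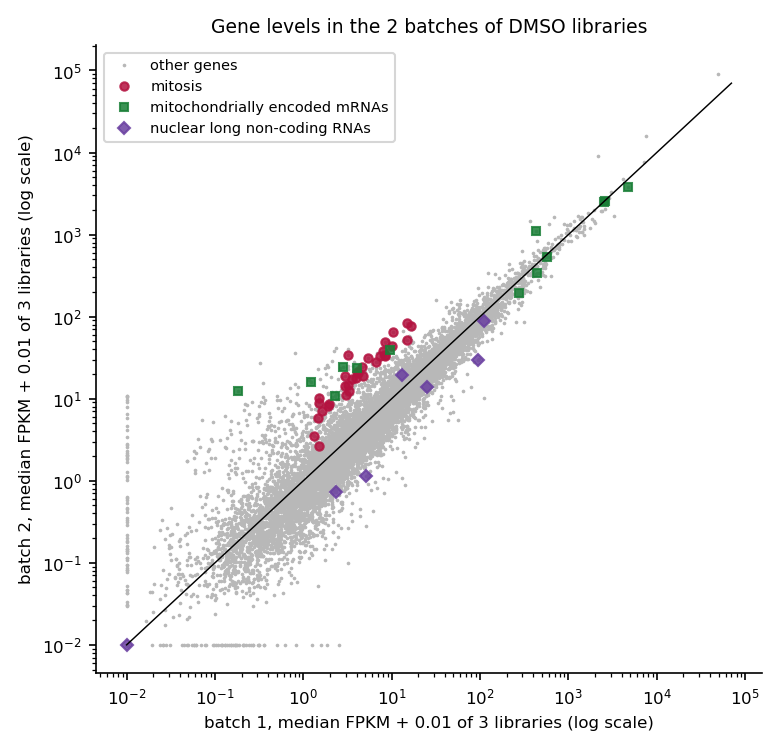
Median FPKM plus 0.01 of each gene named in both tables in batch 1 (x axis) and batch 2 (y axis), both on log scales, with the line of equal levels and 3 gene lists in colour. The mitosis genes lie above the line, towards batch 2, and most nuclear long non-coding RNAs lie below it.

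The 10 widest gaps in favour of batch 2 included the cell division genes Fam83d, Ccnb1, Hmmr, Iqgap3, Cdca3, Kif11 and Ccna2, with Dock11, an activator of CDC42, and the pseudogenes Gm13340 and Gm8399, whose reads are uncertain. Fam83d, a spindle protein, had 9.76, 1.595 and 1.11 CPM in batch 1 and 11.1, 25.8 and 16.8 in batch 2. Dock11 had 10.6, 2.53 and 3.64 CPM and then 23.4, 22.1 and 22.2. In favour of batch 1, Spry2, an inhibitor of receptor tyrosine kinase signalling, had 107, 120 and 107 CPM in batch 1 and 10.8, 9.84 and 9.88 in batch 2. Ctgf, a matricellular growth factor, had 132, 134 and 105 CPM and then 17.5, 17.2 and 17.8, and Pmepa1, an inhibitor of TGF-beta signalling, 206, 213 and 254 and then 29.6, 24.5 and 34.2. The libraries of a batch lay close together for Spry2, Ctgf and Pmepa1, far from those of the other batch. Dpep1, Gdpd5, Gm10800, Ctsw, Vwa1 and Lrrc8a were also among the 10 widest gaps in favour of batch 1.

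Most genes of differentiation were low. Of 33 listed, 32 were analysed in batch 1, where 17 reached 1 CPM, and 23 in batch 2, where 14 did. The highest 4 were Cdkn1a, Cdh15 and the acetylcholine receptor subunit genes Chrna1 and Chrnb1, of which Chrna1 had 169, 146 and 98.8 FPKM in batch 1 and 142, 166 and 144 in batch 2. Acta1 had 24.3, 10.2 and 9.34 in batch 1 and 6.13, 22.2 and 13.4 in batch 2, and was highest in the library of each batch that was also highest for mitosis genes. Of the members at 10 CPM or more, 5 of 11 varied over 2-fold in batch 1 (2.83% of all genes) and 1 of 9 in batch 2 (0.221% of all genes). In each batch 7 of them were highest in library 1 and in library 2, respectively. The share of all genes highest in those libraries was not counted. Mymk, the fusion protein myomaker, had 0.71, 2.21 and 0.62 and then 0.31, 1.33 and 1.38, and Myh3, embryonic myosin, did not exceed 0.19. What part the share of differentiating cells had in the Acta1 values was not tested.

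Matrix genes were led by Sparc, a calcium-binding matrix protein, with 220, 245 and 174 FPKM in batch 1 and 167, 205 and 191 in batch 2. Col4a1, a chain of basement membrane collagen, had 54.4, 64.9 and 56.2 and then 48.9, 61.0 and 56.9. Both overlapped between batches. Fibrillar collagen was low: Col1a1 had 0.46, 2.96 and 1.54 in batch 1 and 0.23, 0.35 and 0.39 in batch 2, and was the most variable gene of batch 1 with 2.88, 18.5 and 9.31 CPM. Fn1, fibronectin, did not exceed 0.93. Timp1, an inhibitor of matrix metalloproteinases, had 60.9, 58.9 and 45.7 in batch 1 and 135, 143 and 144 in batch 2. Hspg2, the basement membrane proteoglycan perlecan, had 23.1, 23.1 and 21.3 and then 55.7, 57.3 and 55.7. Of the 28 matrix genes compared, 3 were higher in batch 2 (4.82% of all genes) and 8 in batch 1 (10.8% of all genes), and with TMM scaling 3 and 7 (6.83% and 6.35% of all genes). Itgb1, the common beta chain of laminin and fibronectin receptors, had 146, 132 and 114 and then 160, 169 and 162, whereas Itga4 had no count in batch 1.

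Notch signalling, which holds satellite cells in quiescence and self-renewal, was represented by its receptor Notch2 with 11.7, 13.1 and 11.01 FPKM in batch 1 and 15.4, 14.9 and 14.02 in batch 2. The target Hes1, a repressor, had 17.4, 27.1 and 25.7 and then 9.92, 14.3 and 14.7, and the target Heyl, also a repressor, had 7.61, 9.47 and 4.89 and then 2.55, 2.80 and 3.23. Both targets were higher in batch 1 without overlap. Of the 12 pathway genes compared, 3 were over 2-fold higher there by CPM and 1 with TMM scaling, against 10.8% and 6.35% of all genes. Among growth factor receptors, Tnfrsf12a, the receptor of TWEAK, was the highest with 488, 425 and 571 in batch 1 and 477, 502 and 490 in batch 2. Met, the receptor of hepatocyte growth factor, had 64.2, 57.4 and 53.3 and then 70.7, 65.4 and 60.9. Both of these overlapped between batches. Fgfr1, a fibroblast growth factor receptor, had 31.4, 42.8 and 41.6 and then 22.8, 18.1 and 18.1, and Igf1r, the receptor of IGF1, 17.9, 18.5 and 15.8 and then 8.78, 7.45 and 6.99. Fgfr1 and Igf1r were the 2 of 21 receptors over 2-fold higher in batch 1, a share near the 10.8% of all genes, and none was higher in batch 2, where 4.82% of all genes were.

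The study treated such cells with adenosine and AMP, and the genes that sense and handle both are given here at their level with DMSO alone. Adora2b, the low-affinity adenosine receptor that couples to cyclic AMP, was the main adenosine receptor RNA with 4.30, 2.83 and 3.44 FPKM in batch 1 and 5.18, 8.14 and 6.49 in batch 2. Adora1 (0.18, 0.07 and 0), Adora2a (0.20, 0 and 0.13) and Adora3 (0, 0.02 and 0) were near 0 in batch 1 and were not analysed in batch 2. P2ry2, a receptor of ATP and UTP, had 3.88, 5.08 and 4.24 and then 5.34, 5.71 and 6.71, and P2rx4, an ATP-gated channel, 4.37, 3.76 and 4.96 and then 2.09, 2.05 and 2.36. Of 19 receptors, 18 were analysed in batch 1, where 7 reached 1 CPM. Only 7 were listed in batch 2, and all 7 reached it there.

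Uptake and conversion genes were higher than the receptors. Slc29a1, the equilibrative nucleoside transporter, had 47.6, 36.5 and 40.5 FPKM in batch 1 and 45.0, 51.0 and 52.4 in batch 2, and was 4.50 to 5.62 times as high as Slc29a2 in the first and 3.12 to 3.52 times in the second. Adk, which phosphorylates adenosine to AMP, had 60.7, 54.7 and 55.6 and then 72.8, 72.8 and 67.9. Ada, which deaminates adenosine, was lower, with 4.90, 3.09 and 5.01 and then 4.97, 4.603 and 4.89. Ahcy, which releases adenosine from S-adenosylhomocysteine, had 77.4, 57.9 and 64.2 and then 108, 107 and 106, and Aprt, which salvages adenine, 385, 353 and 506 and then 345, 341 and 348. The ectonucleotidase Nt5e (CD73), which turns AMP outside the cell into adenosine, was near 0 with 0.02, 0.09 and 0.07 in batch 1, and Entpd1 had no count there. None of the 18 turnover genes compared was over 2-fold apart between batches, where 4.82% of all genes were higher in batch 2 and 10.8% in batch 1. None of the 14 at 10 CPM or more varied over 2-fold within a batch. Among all genes at that level 2.83% did in batch 1 and 0.221% in batch 2.

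**Figure D5:**
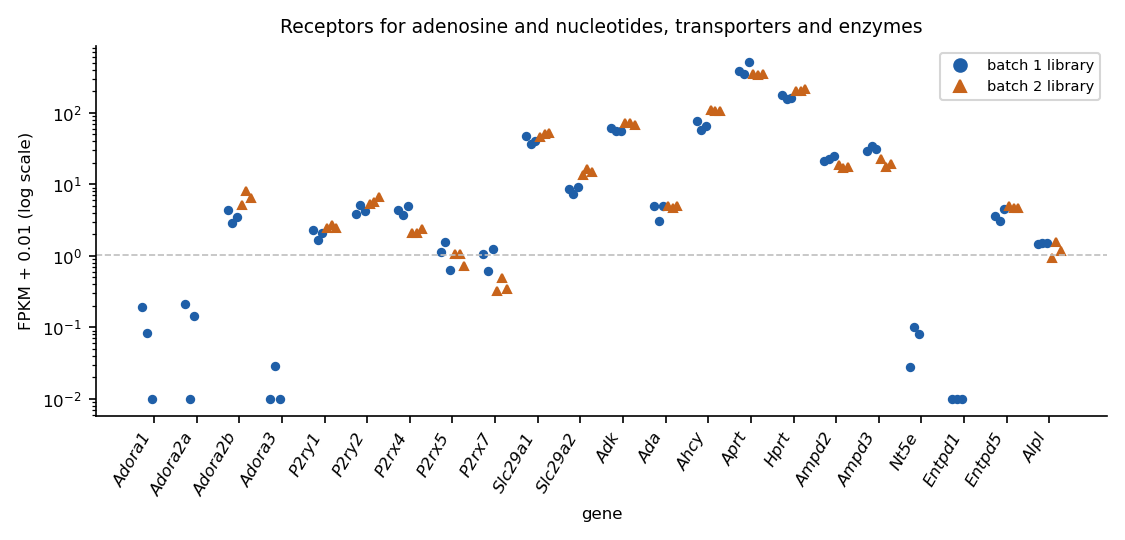
FPKM plus 0.01 on a log axis for receptors of adenosine and nucleotides, nucleoside transporters and enzymes of adenosine turnover, 1 point per DMSO library of batch 1 (circles) and batch 2 (triangles); the dashed line marks 1 FPKM. The transporter Slc29a1 and the enzymes Adk, Ahcy and Aprt lie above every receptor in all 6 libraries.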

How the data were processed

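RNA was sequenced from the 3 DMSO control libraries of each of 2 batches. The submitters' processing notes name Trim Galore, STAR, featureCounts of the Subread package, DESeq2 and the mouse build mm10, with no order. Per the file headers, the authors made the batch 1 counts with featureCounts version 1.6.4 (for batch 2, version and options: not given in the sources used here). Deposited counts are whole reads per gene, and the deposited gene length is the number of bases of the gene model. The deposited FPKM were, in every library, proportional to the count over the batch 1 gene length (within 0.01%).

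Deposited FPKM served to compare genes, CPM over the library total to compare libraries of a batch, and CPM over the 13042 genes named in both tables to compare batches. In batch 2, 43 lines with no gene name (0.0575% of the DMSO counts) were left out. Detection meant at least 1 CPM in all 3 libraries. Spread was the highest over the lowest CPM, counted past a ratio of 2 where the mean CPM was 10 or more. A gene set apart between batches had a mean of at least 1 CPM, no overlap and a median ratio over 2. edgeR 4.0.16 (R 4.3.3) gave the common dispersion after TMM scaling and filterByExpr. The estimate and the counts were tested on simulated data. Ranks and ratios were computed with Python 3.11.15, pandas 2.3.3 and numpy 2.4.6. Promoters came from a RefSeq table on GRCm38.p6, and figures were drawn with matplotlib 3.10.9. No hypothesis test was made, as each batch is 1 group.

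Named genes were the 5 identity markers, the 20 highest in both batches, the 10 most variable per batch, the 10 with the widest gap between batches in each direction, and members of 37 lists. The lists and their members were chosen with earlier results of these data known. Alternatives were other scalings, other minimum levels and each library left out in turn. A few genes that the rule names are not reported here.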

Additional observations from a re-analysis of the deposited data

How the results depend on the processing

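No paired analysis was possible because each batch is 1 group of DMSO libraries and no test was made. Between batches, the Spearman correlation was 0.962 by CPM and 0.930 among genes of at least 1 FPKM in both, and the Pearson correlation of log2(FPKM + 1) was 0.959. Without a filter the batch 1 coefficient of variation was 0.230. With a minimum of 1 CPM, genes varying over 2-fold numbered 1493 in batch 1 and 549 in batch 2. With a minimum of 10 CPM, genes apart between batches numbered 241 higher in batch 2 and 576 higher in batch 1. With TMM, 755 were higher in batch 1, and 24 S phase genes were higher in batch 2. The cause was not tested.

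With each library left out in turn, detected genes numbered 11685 to 11731 in batch 1 and 11386 to 11438 in batch 2, the Spearman correlation was 0.942 to 0.950, and 420 to 438 of the 500 highest genes were shared. The coefficient of variation was 0.173 to 0.196 in batch 1 and 0.0632 to 0.0980 in batch 2. Genes varying over 2-fold numbered 70 to 173 and 2 to 14, of which mitosis genes were 0 to 31 and 0 to 4. Genes higher in batch 2 numbered 533 to 713, mitosis genes among them 25 to 32 and S phase genes 2 to 15, and genes higher in batch 1 numbered 1287 to 1455. The mean summed FPKM of mitosis genes in batch 1 was 160.3 to 326.6. Ranked by CPM, 46 of 54 median percentiles of the lists moved by over 1 SD. At 10 CPM a gene rested on 115 counts or more.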

Other observations

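Immediate early genes, which are induced within minutes by growth factors and stress, ranged widely, with a median percentile of 58.3 in batch 1 and 59.3 in batch 2. Myc, a driver of growth, had 228, 244 and 330 FPKM in batch 1 and 151, 155 and 173 in batch 2, and Junb, a subunit of AP-1, 163, 185 and 261 and then 66.6, 82.9 and 91.9. Both were highest in library 3 of their batch and did not overlap between batches. Egr1, a zinc finger factor of the same response, had 60.3, 67.1 and 77.7 and then 69.1, 72.8 and 77.2, which overlapped. Fos, another AP-1 subunit, was low, with 2.94, 1.72 and 3.07 in batch 1 and 8.23, 7.11 and 6.82 in batch 2, and so differed from Junb in direction. Of the 22 immediate early genes compared, 2 were over 2-fold higher in batch 2 and 3 in batch 1, shares near those of all genes (4.82% and 10.8%).

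Imprinted genes included H19, a non-coding RNA of the Igf2 locus, with 56.6, 29.9 and 15.8 FPKM in batch 1 and 20.6, 34.2 and 27.7 in batch 2. Its highest CPM was 3.68 times the lowest in batch 1, and its highest library was again library 1 of batch 1 and library 2 of batch 2. Grb10, an adaptor that restrains insulin signalling, had 23.6, 23.3 and 19.9 and then 23.6, 24.5 and 23.3. Meg3 did not exceed 0.35. Dlk1 did not exceed 0.17 in batch 1 and was not listed in batch 2. Among nuclear long non-coding RNAs, Malat1, an RNA of nuclear speckles, had 83.4, 115 and 93.5 and then 36.3, 23.6 and 29.3, and Neat1, the scaffold of paraspeckles, 4.91, 6.39 and 5.08 and then 1.30, 0.82 and 1.15. Of the 6 such RNAs compared, 3 were over 2-fold higher in batch 1 (10.8% of all genes) and none in batch 2 (4.82% of all genes).

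Among secreted factors, Csf1, the macrophage growth factor, was the highest, with 135, 137 and 147 FPKM in batch 1 and 137, 110 and 116 in batch 2. Ccl2, a monocyte chemokine, had 15.7, 25.3 and 30.7 and then 9.09, 8.80 and 9.64, and was lowest in library 1 in batch 1. In batch 1 Hgf did not exceed 0.09, Mstn 0.05 and Il6 0.14, and none of them was listed in batch 2. The intermediate filaments Vim and Nes were both higher in batch 2. Vim had 380, 394 and 438 in batch 1 and 551, 618 and 594 in batch 2, and Nes had 17.4, 9.99 and 8.62 and then 30.3, 34.6 and 28.9. Wdfy1, an endosomal adaptor, was the most variable gene of batch 2, with 16.5, 3.66 and 18.0 CPM, the lowest in library 2. It stood at 38.03, 37.95 and 40.7 CPM in batch 1, above every value of batch 2.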
